A study of Mus musculus with 8 samples.

Results

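The genes described here encode the proteins of the cytosolic ribosome. They were chosen by symbol: every gene whose name starts with Rpl or Rps followed by a digit, with Rplp0, Rplp1, Rplp2 and Rpsa added, and with pseudogene symbols containing -ps and the Rps6k kinases left out. The rule found 85 of the 18584 genes listed at any age, and all 85 were listed in every library. Of these, 72 are canonical genes on autosomes (42 of the large and 30 of the small subunit), 4 are canonical genes on the X chromosome (Rpl10, Rpl36a, Rpl39 and Rps4x), and 8 are paralog copies (Rpl3l, Rpl7l1, Rpl10l, Rpl22l1, Rpl36al, Rpl39l, Rps27l and Rps4l). The last, Rps19bp1, encodes a nucleolar partner of Rps19 and is no ribosomal protein, so it met the rule by name only.

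Total RNA of whole testes was sequenced from male mice with an IAP insertion, a copy of an endogenous retrovirus, in Dnmt3c, a DNA methyltransferase gene of the male germ line. Homozygotes (IAP/IAP, called mutants) were compared with heterozygotes (IAP/WT, called controls) on a C3H/HeJ and C57BL/6J hybrid background. There was 1 library of each genotype at 16.5 days post coitum (dpc), 1 of each at 10 days post partum (dpp) and 2 of each at 20 dpp, 8 in all. The controls carry the insertion on 1 allele, no wild-type library was analysed here, and the labels do not say whether the libraries of one genotype are from different mice. Each library held between 57166311 and 155742823 reads on genes, and the lowest count of any listed gene was 5. Reads of Dnmt3c were not analysed here and give no check of the genotypes.

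Ribosomal proteins are made in fixed proportion for the large and small subunits, and their genes are transcribed in every growing cell. Their messenger RNAs start with a run of pyrimidines through which the mTOR kinase and Larp1 control translation. In the male germ line the X chromosome is silenced during meiosis, and several X-linked ribosomal protein genes have autosomal copies that are transcribed in germ cells. Rpl10l is known to stand in for Rpl10 in meiosis, and Rpl39l is known as a ribosomal protein of spermatids.

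The results turn on these 2 copies, whose coding sequences are set beside those of their X-linked parents. Sequences are from the GENCODE M21 transcripts (GRCm38), read from the start codon on, and capitals mark the bases at which copy and parent differ. Rpl39l lies at chr16:10170226-10174911 on the plus strand and Rpl39 at chrX:37082520-37085402 on the minus strand. Rpl10l, a gene of 1 exon, lies at chr12:66283379-66284401 on the minus strand and Rpl10 at chrX:74270812-74273135 on the plus strand. Rpl39 and Rpl39l are shown over their whole coding length of 156 bases, and Rpl10 and Rpl10l over the first 120 of 645 bases.
Rpl39: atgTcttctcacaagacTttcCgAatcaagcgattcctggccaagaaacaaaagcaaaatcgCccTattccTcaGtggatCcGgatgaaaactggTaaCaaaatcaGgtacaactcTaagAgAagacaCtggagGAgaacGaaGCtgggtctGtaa
Rpl39l: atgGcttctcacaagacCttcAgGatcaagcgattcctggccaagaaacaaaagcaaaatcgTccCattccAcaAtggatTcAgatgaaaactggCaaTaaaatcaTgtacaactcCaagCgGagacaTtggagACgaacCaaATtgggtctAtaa
Rpl10: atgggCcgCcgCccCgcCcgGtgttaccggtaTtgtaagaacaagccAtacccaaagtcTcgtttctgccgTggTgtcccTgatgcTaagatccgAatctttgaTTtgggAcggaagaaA
Rpl10l: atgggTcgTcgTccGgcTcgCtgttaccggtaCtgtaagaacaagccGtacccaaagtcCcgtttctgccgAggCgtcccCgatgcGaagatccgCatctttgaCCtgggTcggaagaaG
Rpl39l matches Rpl39 at 133 of 156 coding bases (85.3%), and Rpl10l matches Rpl10 at 547 of 645 (84.8%). The longest run of identical coding bases is 38 in the first pair and 23 in the second, and no stretch of 50 bases of any of the 8 copies occurs in its parent's transcript. The copies can therefore be counted apart from their parents by reads of that length. The sources used here do not give the read length, nor how reads that match several places were treated. Of the 50-base stretches of Rpl10, 92.1% also occur in transcripts of other genes, against 7.60% for Rpl10l, 16.5% for Rpl39 and none for Rpl39l, so the level of Rpl10 is the least certain of the 4.

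The first comparison asks how these genes differed between genotypes at 20 dpp, the age with replicates. The deposited values are log2 of scaled reads plus 1, and changes are differences of these values, mutant minus control. Rpl10l and Rpl39l were about an order of magnitude lower in the mutants, the X-linked genes were higher, and the canonical autosomal genes differed little, with more of them lower than higher. Of the 85 genes, 26 passed in limma at an adjusted p under 0.05, 5 higher and 21 lower in the mutants. Among all 17194 genes tested at this age, 59.5% passed (26.4% higher and 33.1% lower), and the members' count is a smaller share than that, a difference that was not tested. Their median change was -0.19, beside 0.049 for all genes tested. Testis is a mixture of cells, and in these bulk samples fewer cells of a type and less RNA per cell cannot be told apart.

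Rpl10l encodes the autosomal counterpart of Rpl10, a large subunit protein near the peptidyl transferase centre. Its deposited log2 levels were 11.60 and 11.16 in mutant libraries and 15.19 and 14.74 in control libraries. In scaled reads, that is 2690 ± 571 against 32344 ± 6964 (mean ± SD, n = 2 each). The groups did not overlap, and Rpl10l fell by 3.59 ± 0.20 on the log2 scale (SE, adjusted p = 8.0e-06 in limma), or 12-fold, more than any other of the 85 genes.

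Rpl39l encodes a small basic protein that lines the exit tunnel of the large subunit in place of Rpl39. It stood at 11.79 and 11.53 in the mutants and at 14.95 and 15.01 in the controls, again without overlap. Scaled reads were 3244 ± 421 in the mutants and 32265 ± 899 in the controls (mean ± SD, n = 2 each). Rpl39l fell by 3.32 ± 0.14 (SE, adjusted p = 2.5e-06), or 9.98-fold. Both falls passed in all 15 alternative analyses.

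Lists of cell type markers moved with these copies. All 18 measured spermatocyte markers and all 17 measured spermatid markers were lower in the mutants, with median changes of -5.30 and -5.99. Clgn (-5.79) and Ropn1l (-6.51) had the lowest p among the former, and Tekt1 (-8.01) and Crem (-3.42) among the latter. The spermatocyte markers summed to 1425 to 1882 counts per 1000000 gene reads (CPM) in the mutants and to 13999 to 14703 in the controls, and the spermatid markers to 35.0 to 47.4 and 911 to 1442. None was at 0 in a listed row, and 2 spermatocyte and 3 spermatid markers were not listed at this age. The part of these cells in the falls of Rpl10l and Rpl39l was not tested.

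The other copies moved less and in both directions. Of the 50-base stretches of Rpl22l1 and Rpl36al, 65.6% and 63.3% also occur in transcripts of other genes, which adds uncertainty to their levels. Rpl22l1, the paralog of an RNA-binding large subunit protein, stood at 11.12 and 10.75 in the mutants and at 11.87 and 12.11 in the controls, and fell by 1.05 ± 0.19 (adjusted p = 0.0026). Rps4l, annotated in GENCODE M21 as a transcribed processed pseudogene of the Rps4 family, stood at 12.85 and 12.94 against 13.88 and 13.71 and fell by 0.90 ± 0.13 (adjusted p = 0.00078). Both sets of libraries were separated between genotypes. Rpl36al, an autosomal copy of X-linked Rpl36a, was at 11.80 and 11.48 in the mutants and at 12.17 and 12.25 in the controls, and fell by 0.57 ± 0.16 (adjusted p = 0.020). Rps27l, a copy of Rps27 that is known as a p53 target, was at 12.86 and 12.52 against 13.03 and 13.23 and fell by 0.44 ± 0.16 (adjusted p = 0.048). The falls of Rpl36al and Rps27l did not pass without mutant 2, control 1 or control 2 (between -0.61 and -0.27), and with total gene reads as the scale both changes were positive (0.028 for Rpl36al and 0.16 for Rps27l, neither passing). Rpl7l1, a paralog that acts in assembly of the large subunit, was the only copy to rise, by 0.47 ± 0.15 (adjusted p = 0.028), from 13.07 and 13.16 in the controls to 13.76 and 13.42 in the mutants. Without mutant 1 its change was 0.30 (adjusted p = 0.11), without control 1 0.43 (adjusted p = 0.13) and without control 2 0.51 (adjusted p = 0.072). Rpl3l, known as a muscle form of Rpl3, stood at 7.47 and 6.79 against 6.95 and 7.11, with overlapping groups and a change of 0.10 ± 0.43 (adjusted p = 0.85).

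The 4 X-linked canonical genes were all higher in the mutants at 20 dpp, with a median change of 0.96, and their libraries were separated between genotypes. Rps4x, which encodes a small subunit protein, stood at 13.22 and 12.88 in the mutants and at 11.82 and 12.23 in the controls, and rose by 1.02 ± 0.19 (adjusted p = 0.0030). Rpl36a, a large subunit protein, stood at 12.61 and 12.27 against 11.34 and 11.74 and rose by 0.90 ± 0.19 (adjusted p = 0.0057). These calls passed in all 15 alternative analyses, none of which changed how reads matching several places were treated. Of the 50-base stretches of Rps4x and Rpl36a, 72.2% and 85.5% also occur in transcripts of other genes, which adds uncertainty to their levels. Rpl10, the parent of Rpl10l, stood at 9.60 and 9.68 in the mutants and at 7.70 and 9.06 in the controls, and rose by 1.26 ± 0.45 (adjusted p = 0.043). The 2 controls were far apart: control 1 held 128 reads of Rpl10 and control 2 held 614. Without control 1 the rise was 0.58 (adjusted p = 0.18), and without mutant 1 or mutant 2 it was 1.30 or 1.22 (adjusted p = 0.052 or 0.078). Rpl39, the parent of Rpl39l, stood at 11.76 and 11.29 against 10.59 and 11.17. Its difference of 0.64 ± 0.25 did not pass (adjusted p = 0.063), but it passed without mutant 2 (0.88, adjusted p = 0.015) and without control 2 (0.93, adjusted p = 0.023). Without control 1 it was lowest, at 0.35 (adjusted p = 0.31).

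A ratio within a library needs no scaling between libraries. The median log2 level of the 4 X-linked genes lay 0.89 and 0.91 below that of the 72 autosomal canonical genes in the mutants at 20 dpp, and 2.10 and 1.74 below it in the controls. The X-linked genes were thus 1.03 closer to the autosomal genes in the mutants, with no overlap (exact permutation test, two-sided, p = 0.33, the smallest that 2 libraries against 2 allow). At 10 dpp the X-linked median lay 0.85 below in the mutant and 0.88 in the control, and at 16.5 dpc 0.42 and 0.39 below. Both mutants of 20 dpp were close to the 10 dpp libraries in this measure. Markers of Sertoli cells, which are somatic, moved in the same direction: 19 of 23 rose, among them Wt1 (1.37), and 1 fell, Cst9 (-2.06), and their summed level was 8204 and 9061 CPM in mutant libraries against 2980 and 3377 in controls. Their part in the X-linked difference was not tested.

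**Figure D1:**
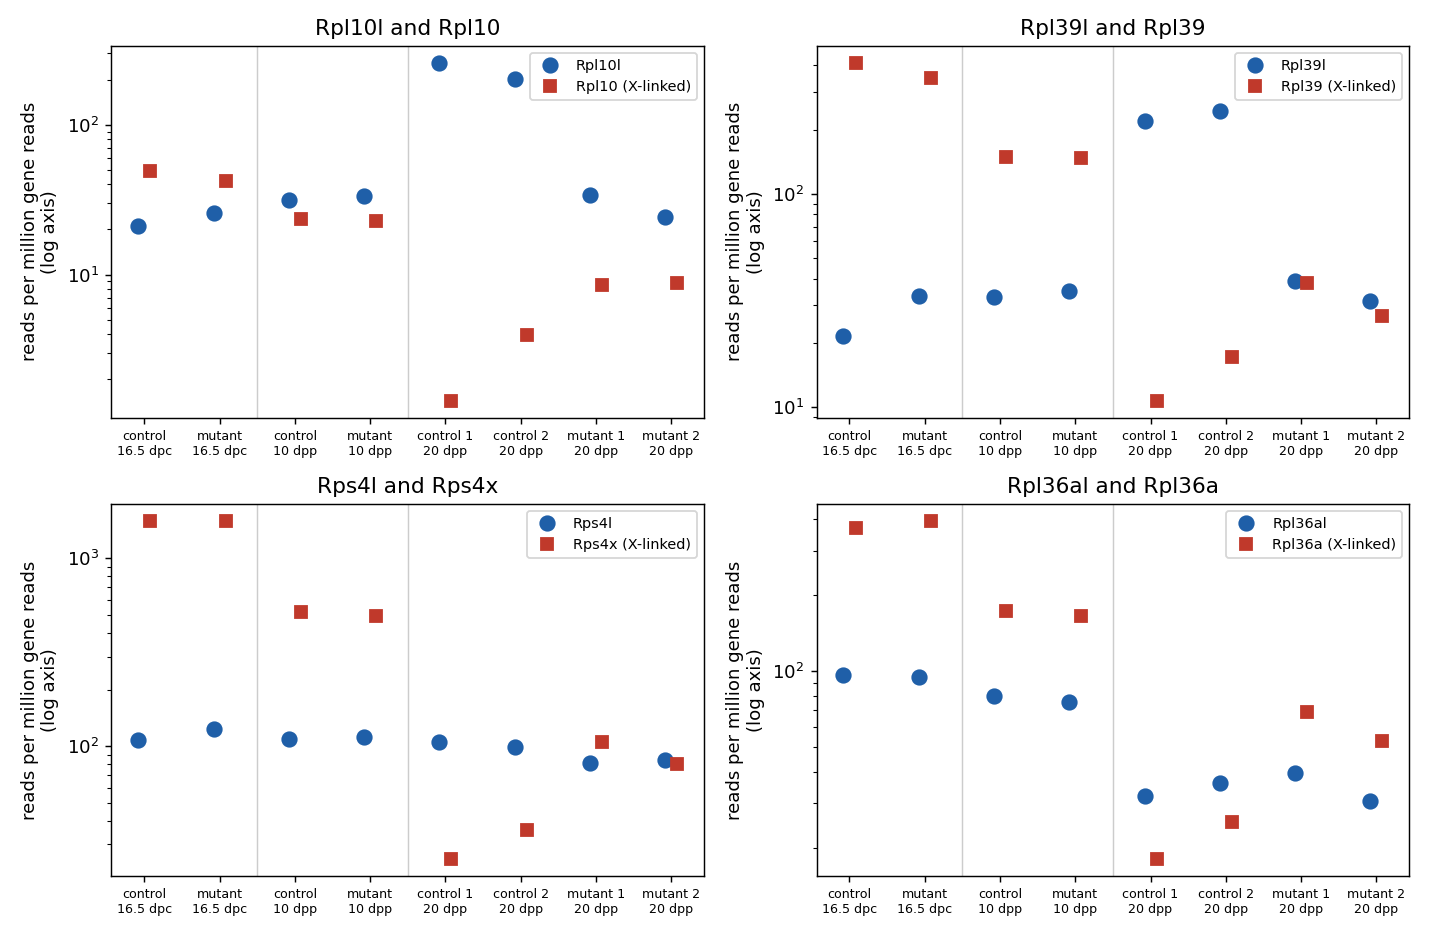
Level in CPM (log axis) of 4 autosomal copies (blue circles) and their X-linked parents (red squares), 1 point per library, with ages divided by grey lines and not corrected for transcript length. Rpl10l reached 259 and 203 in the 20 dpp controls and 34.1 and 24.4 in the mutants, while Rpl10 was at 1.44 and 3.94 in those controls and at 8.52 and 8.75 in those mutants.

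The copies were also set against their parents within each library, as the log2 level of the copy minus that of the parent. Rpl10l exceeded Rpl10 by 6.59 ± 1.27 in the 20 dpp controls and by 1.74 ± 0.37 in the mutants (mean ± SD, n = 2 each), a difference of -4.85. Without control 1, which held few reads of Rpl10, it was -3.95, and without control 2 it was -5.75. Rpl39l exceeded Rpl39 by 4.10 ± 0.37 in the controls and by 0.14 ± 0.15 in the mutants, a difference of -3.96. For Rps4l and Rps4x the difference between genotypes was -1.92, for Rpl36al and Rpl36a -1.47, and for Rpl22l1 and autosomal Rpl22 -1.07. Rpl7l1 against Rpl7 (0.57) and Rps27l against Rps27 (0.64) differed the other way. Rps27 held between 67 and 147 reads in the 20 dpp libraries, and 98.6% of its 50-base stretches occur in other genes, so its level is uncertain. These 7 pairs were separated between genotypes, each with p = 0.33, the smallest the exact permutation test can give here. Rpl3l against Rpl3 differed by 0.042 (exact permutation test, p = 1). As a share of the reads on a pair, Rpl10l took 99.4% (95% Wilson interval 99.3% to 99.5%) and 98.1% (97.9% to 98.2%) in the controls and 80.0% (78.9% to 81.1%) and 73.6% (72.0% to 75.1%) in the mutants. Rpl39l took 95.4% (95.1% to 95.6%) and 93.4% (93.2% to 93.7%) in the controls and 50.6% (49.6% to 51.6%) and 54.1% (52.8% to 55.4%) in the mutants. These intervals cover counting error only. They leave out the uncertainty from shared sequence, which for Rpl10 holds 92.1% of its 50-base stretches, so shares of that pair may not be true proportions.

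Levels were also divided by the length of a single chosen transcript of each gene, which makes comparison of different genes only approximate. For Rps20 that transcript held 3706 bases, 360 of them coding, so its level per kilobase may be understated. Sequence shared with other genes adds to the uncertainty. Rpl39l stood at 273 and 303 CPM per kilobase in the 20 dpp controls and Rpl10l at 253 and 199. The highest canonical genes of these controls by this measure, Rpl32, Rpl8 and Rplp1, stood at 443 and 500, 404 and 447, and 373 and 453. Rpl10 was at 1.80 and 4.93 and Rpl39 at 17.5 and 27.9. In the mutants Rpl39l fell to 48.5 and 39.0 and Rpl10l to 33.3 and 23.8, beside 62.4 and 43.5 for Rpl39. By this measure both copies were within the range of the canonical genes in the controls, and in the mutants Rpl39l and Rpl39 stood close together.

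The canonical autosomal genes showed smaller differences, in both directions. Of the 72, 15 fell and 1 rose, beside 33.1% and 26.4% of all genes. The median change of the 72 was -0.18, with a range from -1.12 to 0.49. The counts by subunit and by shared sequence are to be read beside the same shares. In the large subunit 11 of 42 fell and none rose (median -0.20), and in the small subunit 4 of 30 fell and 1 rose (median -0.13). The libraries were separated between genotypes for 26 lower and 3 higher genes of the 72, and for 33 lower and 8 higher of the 85, against 41.2% of all genes in each direction. Many of these genes share sequence with pseudogenes. Of the 9 with under 30% of their 50-base stretches in other genes, 1 fell and none rose (median -0.20), and of the 26 with over 70%, 5 fell and 1 rose (median -0.16).

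Rpl36, a large subunit protein, stood at 12.47 and 11.72 in the mutants and at 13.22 in both controls, and fell by 1.12 ± 0.23 (adjusted p = 0.0048). Rps7, a small subunit protein that is known to bind Mdm2, stood at 13.96 and 13.44 against 14.71 and 14.76 and fell by 1.03 ± 0.18 (adjusted p = 0.0020). Rpl41, the smallest protein of the large subunit, stood at 13.75 and 13.26 against 14.49 and 14.53 and fell by 1.01 ± 0.17 (adjusted p = 0.0019). In these 3 genes both mutants lay below both controls, and mutant 2 was the lower of the mutants. Rpl18 fell by 0.91 ± 0.16 (adjusted p = 0.0020) and Rpl24, which bridges the subunits, by 0.86 ± 0.16 (adjusted p = 0.0034). Rplp0, the base of the stalk that recruits elongation factors, fell by 0.73 ± 0.15 (adjusted p = 0.0044), while its stalk partners Rplp1 (-0.34 ± 0.20, adjusted p = 0.19) and Rplp2 (0.13 ± 0.18, adjusted p = 0.54) did not pass. Without mutant 1 Rplp1 passed with -0.65 (adjusted p = 0.0019), and without mutant 2 Rplp2 passed with 0.39 (adjusted p = 0.037), while without mutant 1 Rplp2 was at -0.12. These 6 falls passed in each fit without 1 library, and none passed with total gene reads as the scale (changes from -0.53 to -0.14). With the upper quartile as the scale Rpl24 (-0.40, adjusted p = 0.065) and Rplp0 (-0.28, adjusted p = 0.13) did not pass, nor did Rplp0 with the scale set by the canonical autosomal genes (-0.54, adjusted p = 0.14). A further 9 canonical autosomal genes fell, among them Rpl8 (-0.61 ± 0.15, adjusted p = 0.010) and Rpl32 (-0.58 ± 0.18, adjusted p = 0.029). Rpl8 did not pass without control 2 (-0.58, adjusted p = 0.058), nor Rpl32 without mutant 2 (-0.30, adjusted p = 0.089), control 1 (-0.62, adjusted p = 0.077) or control 2 (-0.54, adjusted p = 0.11). Rps3a1, a small subunit protein, was the one canonical autosomal gene that rose, by 0.49 ± 0.17 (adjusted p = 0.036), from 12.68 and 13.04 to 13.48 and 13.22. Its rise did not pass without mutant 1 (0.36, adjusted p = 0.096) or without control 1 (0.31, adjusted p = 0.23).

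Several members known for roles outside the ribosome were examined by name. Rpl11 and Rpl5 bind Mdm2 together with ribosomal RNA. Rpl11 fell by 0.67 ± 0.21 (adjusted p = 0.027), with 11.67 and 11.23 against 11.93 and 12.30. Rpl5 had a change of 0.046 ± 0.16 (adjusted p = 0.82), and the difference between these genes was not tested. Of their 50-base stretches, 62.2% for Rpl11 and 93.8% for Rpl5 also occur in other genes. With total gene reads as the scale the change of Rpl11 was -0.072 and did not pass. The fall of Rpl11 did not pass without mutant 2 (-0.44, adjusted p = 0.084) or without control 2 (-0.48, adjusted p = 0.15). Rps6, the target of the S6 kinases, had a change of -0.093 ± 0.18 (adjusted p = 0.67), and Rpsa, also known as the laminin receptor precursor, of 0.11 ± 0.17 (adjusted p = 0.59). Rps19, known for its mutations in Diamond-Blackfan anaemia, had separated libraries (12.70 and 12.19 against 11.89 and 12.13) and a change of 0.44 ± 0.20 that did not pass (adjusted p = 0.094), but passed without mutant 2 (0.69, adjusted p = 0.0066). Without mutant 1 it was lowest, at 0.18 (adjusted p = 0.43). Among ribosomal proteins with other names, Fau fell by 0.54 ± 0.17 (adjusted p = 0.030), and Gnb2l1, which encodes Rack1 (-0.11, adjusted p = 0.53), did not pass. Without mutant 2 the change of Fau was -0.29 (adjusted p = 0.098), and without control 1 or control 2 it was -0.52 or -0.56 (adjusted p = 0.11 or 0.080).

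**Figure D2:**
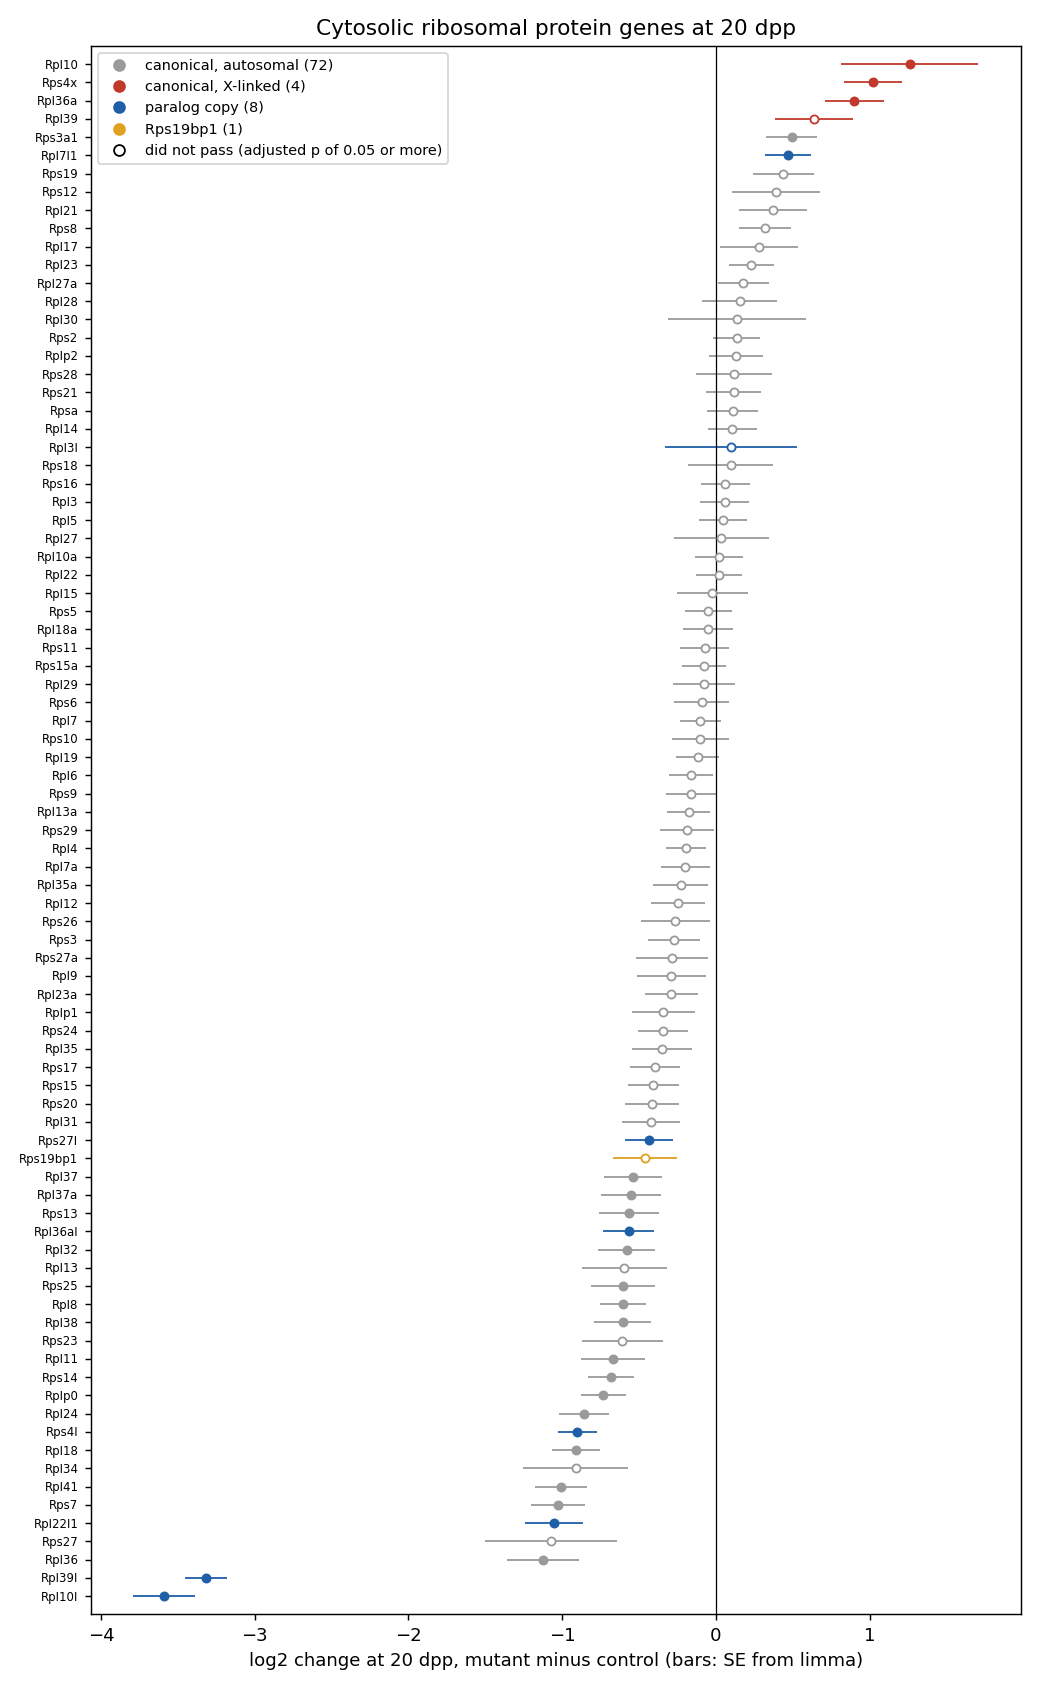
Log2 change at 20 dpp, mutant minus control, of each of the 85 genes, ordered by change, with bars for the SE from limma, filled points for genes that passed and open points for those that did not. Rpl10l (-3.59) and Rpl39l (-3.32) stand apart at the bottom, and the 4 X-linked genes, from 0.64 to 1.26, hold the 4 highest places.

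The direction of the smaller changes depended on how the libraries were scaled, and on single libraries. With total gene reads as the scale, 35 members rose and 2 fell, beside 49.0% and 22.1% of all genes, and the 2 were Rpl10l and Rpl39l. With the upper quartile as the scale, 24 rose and 8 fell, beside 43.8% and 24.4%. These scales moved the median of all genes from 0.049 to 0.64 and 0.50, and that of the members from -0.19 to 0.41 and 0.27, so in each the members' median stayed below that of all genes. With the scale set by the 72 autosomal canonical genes, an alternative added after the data were seen, 7 members rose and 9 fell, beside 29.5% and 25.7%. Without mutant 1, 2 members rose and 35 fell, beside 23.5% and 32.7% of all genes, and without mutant 2, 11 rose and 12 fell, beside 22.1% and 31.5%. The count without control 1 was 2 higher and 15 lower, beside 17.1% and 27.5%, and without control 2 it was 5 higher and 11 lower, beside 23.0% and 30%.

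Replicates of a genotype differed in the members as a body. The 72 autosomal canonical genes were higher in mutant 1 than in mutant 2 in 69 cases, with a median difference of 0.39, and lower in control 1 than in control 2 in 62 cases, with a median of -0.17. Over all genes the same medians were 0.030 and 0.023. The spread between mutant libraries was thus larger than the median change of -0.18 between genotypes for these genes.

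**Figure D3:**
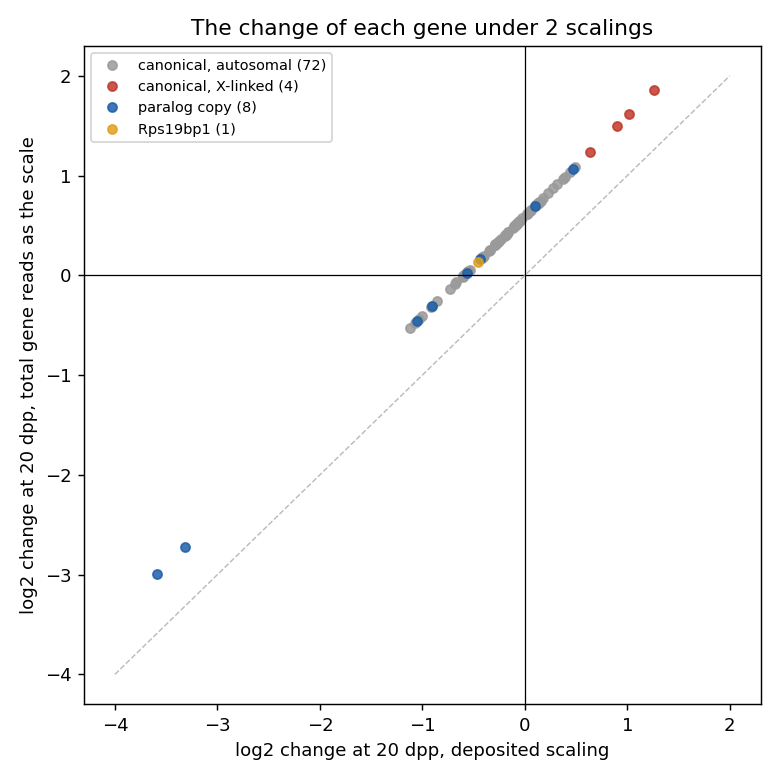
Log2 change at 20 dpp of each of the 85 genes with the deposited scaling (horizontal) against total gene reads as the scale (vertical), with a dashed line of equality. All points lie above the line, the canonical autosomal genes spread over both signs under the deposited scaling and mostly above 0 under the other, and Rpl10l and Rpl39l stay far below 0 under both.

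The share of gene reads that fell on the 85 genes is a level on the scale of total gene reads, under which 35 members rose and 2 fell. The share therefore carries the shift of that scale and is no separate check on the scaling. It was 1.08% (95% Wilson interval 1.08% to 1.09%) and 0.804% (0.802% to 0.806%) in the 20 dpp mutants and 0.735% (0.733% to 0.737%) and 0.841% (0.839% to 0.842%) in the controls, which overlapped (0.944% ± 0.197 against 0.788% ± 0.0748, mean ± SD, n = 2 each, exact permutation test, p = 0.667). On the 8 copies together the shares were 0.0455% and 0.0369% in mutant libraries and 0.0761% and 0.0755% in control libraries, and Rpl10l and Rpl39l alone made up 0.0479% and 0.0447% in the controls and 0.00732% and 0.00558% in the mutants. On the X-linked genes the shares were 0.0221% and 0.0168% in mutant libraries and 0.00553% and 0.00820% in control libraries. The summed copies and the X-linked genes were thus separated between genotypes in opposite directions (exact permutation test, p = 0.33 for each, the smallest possible), while the total was not. The 2 members that fell on this scale were Rpl10l and Rpl39l, so the lower sum of the copies does not describe the other copies. At 10 dpp the 85 genes took 2.31% (2.31% to 2.32%) in the mutant and 2.35% (2.34% to 2.35%) in the control, and at 16.5 dpc 3.92% (3.92% to 3.93%) and 4.03% (4.03% to 4.04%).

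**Figure D4:**
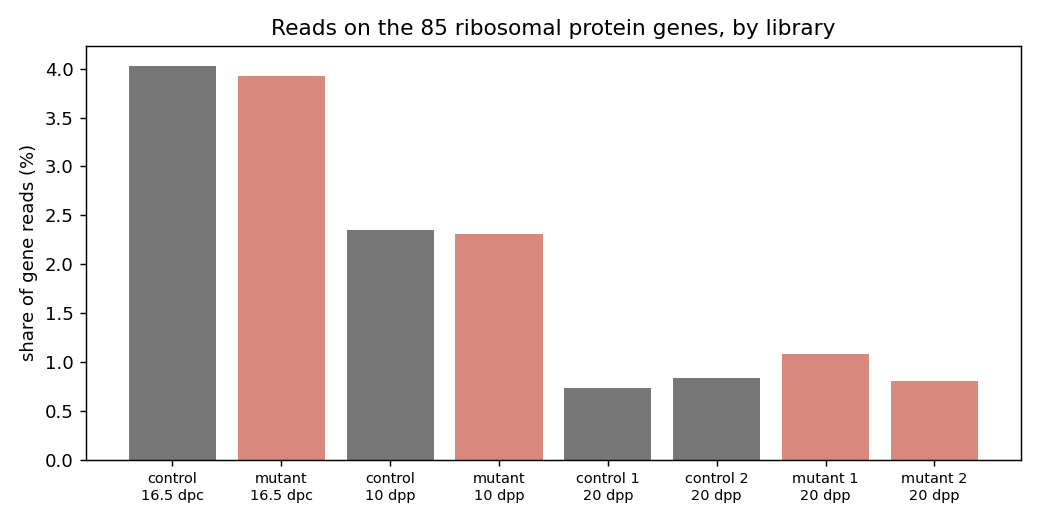
Share of gene reads on the 85 genes in each library, in percent, with controls in grey and mutants in red and 1 bar per library without error bars. Bars fall from about 4% at 16.5 dpc (4.03% and 3.92%) to between 0.735% and 1.08% at 20 dpp, where the genotypes overlap.

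At the 2 earlier ages there was 1 library of each genotype, so ratios compare libraries and have no replicate check. A ratio of at least 2-fold with an exact binomial 95% interval excluding 1 and at least 50 reads was found for none of the 85 genes at either age, beside 0.734% of all genes at 16.5 dpc and 0.886% at 10 dpp. A lower bound of 0.32 on the size of the log2 ratio was also used, with the same rules on interval and reads. At 16.5 dpc 2 members were then higher and 1 was lower in the mutant, beside 8.67% of all genes (5.44% higher and 3.23% lower). At 10 dpp 1 was higher and none lower, beside 5.94% (2.55% higher and 3.39% lower). Their median log2 ratio, mutant to control, was -0.051 at 16.5 dpc and -0.015 at 10 dpp.

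At 16.5 dpc, among members with at least 100 reads in both libraries together, the highest log2 ratios were those of Rpl39l (0.64), Rpl34 (0.43) and Rpl3l (0.29), and the lowest those of Rpl15 (-0.33), Rpl39 (-0.23) and Rpl10 (-0.21). Rpl39l was 1.55-fold higher in the mutant library (interval 1.45 to 1.67), with 33.3 against 21.4 CPM, and Rpl10l was 1.22-fold higher (1.13 to 1.31), with 25.8 against 21.2. The parents were lower in the same library, Rpl39 with a ratio of 0.850 (0.835 to 0.866) and Rpl10 with 0.862 (0.819 to 0.907). The medians of the 4 germ cell marker lists were above 0 at this age. They were 0.47 for differentiating (9 markers listed) and 0.20 for undifferentiated spermatogonia (17), 0.15 for spermatocytes (19) and 0.15 for spermatids (12). Those of leukocytes (-0.24), endothelium (-0.056) and erythroid cells (-0.63, from 3 markers) were below 0. Those of Sertoli (0.021), Leydig (0.059) and myoid cells (0.073) were close to it. Their part in the ratios was not tested. Rpl15, a large subunit protein, had a ratio of 0.797 (0.779 to 0.815).

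At 10 dpp, among members with at least 100 reads in both libraries together, the highest were Rpl34 (0.48), Rpl3l (0.35) and Rpl29 (0.19), and the lowest Rps28 (-0.21), Rpl31 (-0.20) and Rpl27 (-0.18). Rpl10l had a ratio of 1.07 (interval 1.01 to 1.14), Rpl39l one of 1.08 (1.01 to 1.14), and Rps4x one of 0.959 (0.944 to 0.973). The copies and their X-linked parents therefore differed between genotypes by far less at 10 dpp than at 20 dpp. The difference between the ages was not tested. Germ cell marker lists had medians below 0 at 10 dpp. They were -0.081 for differentiating and -0.058 for undifferentiated spermatogonia, -0.068 for spermatocytes and -0.087 for spermatids. Their part in the ratios was not tested. Rpl34 rested on few reads, 170 and 97 at 16.5 dpc and 153 and 114 at 10 dpp. At 20 dpp its difference was of the other sign (-0.91 ± 0.34, adjusted p = 0.052). Rpl3l held fewer, 89 and 56 at 16.5 dpc and 112 and 91 at 10 dpp. The intervals of its ratio included 1 at both ages (0.867 to 1.74 and 0.962 to 1.71).

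**Figure D5:**
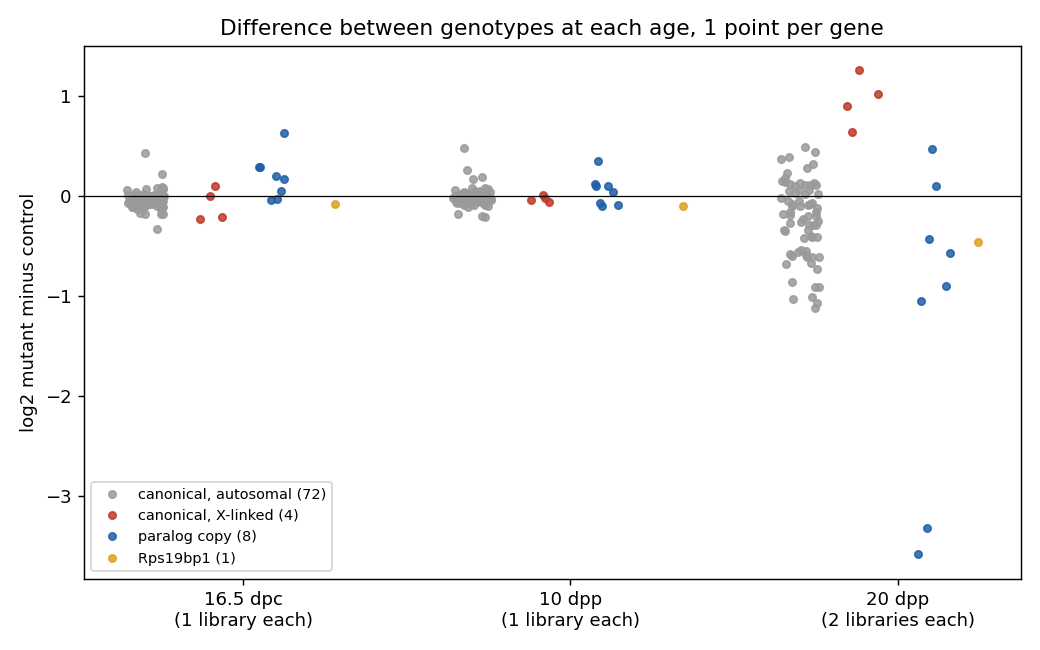
Log2 difference, mutant minus control, of each of the 85 genes at the 3 ages, 1 point per gene, with colours for the 4 classes of genes. Points gather near 0 at 16.5 dpc and 10 dpp, where each genotype has 1 library, and spread at 20 dpp, where the X-linked genes lie from 0.64 to 1.26 and Rpl10l and Rpl39l at -3.59 and -3.32.

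Levels across ages were set side by side in CPM, without a test, since each age was scaled on its own and the earlier ages have 1 library of each genotype. In the controls, the median over the 85 genes of each gene's difference, 20 dpp minus 16.5 dpc, was -2.55 on the log2 scale. Of the 85, 79 were lower at 20 dpp. In the mutants this median was -2.14, and 79 of 85 were lower. The same counts over all genes were not made, so the fall cannot be called particular to these genes. Rpl10l and Rpl39l went the other way in the controls, 3.44 and 3.43 higher at 20 dpp than at 16.5 dpc, and were 0.16 and 0.074 higher in the mutants. Rpl10l stood at 21.2 CPM at 16.5 dpc, 31.4 at 10 dpp and 259 and 203 at 20 dpp in the controls, and at 25.8, 33.5, 34.1 and 24.4 in the mutants. Rpl39l ran from 21.4 over 32.7 to 220 and 244 in the controls, and from 33.3 over 34.9 to 39.1 and 31.4 in the mutants. The X-linked genes were lower at 20 dpp in both genotypes, with a difference of -5.72 for Rps4x in the controls and of -4.10 in the mutants.

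Among 14990 genes listed in all 8 libraries, predicted models left out, those whose log2 CPM followed Rpl10l most closely were Irgc1, Wdr33, Nt5c1b, Ttc29 and Fhad1 (Pearson r from 0.997 to 0.999 over the 8 libraries). For Rpl39l they were Ccdc113, Fars2, Dym, Mael and Slc34a2 (r from 0.995 to 0.997), and Rpl10l and Rpl39l had an r of 0.991 with each other. In each of these 10 genes the 2 controls of 20 dpp were the highest of the 8 libraries, and the values are given as a description.

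Promoters of 64 of the 85 genes are in the RefSeq table used (GRCm38.p6, 250 bases before to 50 after the start). The letters CCGGAAG are the core of sites for ETS factors such as Gabpa. They occur on either strand in 25 of the 64 (39.1%), against 9.93% of 27025 genes with a promoter. A gene counted if any of its listed promoters held the letters. The letters CTTTC on the gene's strand within 20 bases of the start, as in the pyrimidine run of these messenger RNAs, occur in 19 of the 64 (29.7%), against 6.44%, and TGACGTCA, a cyclic AMP response element, in 4 (6.25%), against 2.03%. Of the 16 genes with a promoter that fell at 20 dpp, 8 hold CCGGAAG, 3 hold CTTTC and 1 holds TGACGTCA. With the highest count among a gene's promoters, the members had a median of 22 CpG dinucleotides, against 8 for all genes. The count was 17 for Rpl39l, 17 for Rpl39, 13 for Rpl10l and 17 for Rpl10. The stretches of 60 bases around CCGGAAG are shown for 2 genes that fell, the copy Rpl39l (chr16:10170055-10170114, plus strand) and the canonical gene Rps7 (chr12:28635935-28635994, minus strand), each on the gene's strand with the match in capitals. A match of letters is no evidence of binding.
Rpl39l promoter: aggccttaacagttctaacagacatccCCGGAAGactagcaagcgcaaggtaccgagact
Rps7 promoter: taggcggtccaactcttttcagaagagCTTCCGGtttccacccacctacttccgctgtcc

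Other genes of the translation machinery were examined by list, to be read beside the 33.1% of all genes that were lower and the 26.4% that were higher. Of 43 translation factors measured at 20 dpp, 25 fell and 5 rose (median -0.51), led by Pabpc1, the poly(A) binding protein (-2.35, adjusted p = 2.6e-05), and Eif4g3, an initiation factor known for its role in spermatocytes (-1.68, adjusted p = 5.1e-05). Of 68 ribosome biogenesis factors, 25 fell, a share near that of all genes, and 12 rose (median -0.17), with Wdr12 at -2.37 (adjusted p = 6.9e-06) and Rrp1 at -1.84 (adjusted p = 1.5e-05). Among 15 regulators of ribosomal protein messenger RNAs, 6 rose and 2 fell (median 0.35), the 2 being Larp1 (-1.68, adjusted p = 4.0e-05) and Mtor (-1.62, adjusted p = 0.00024). Of 77 mitochondrial ribosomal protein genes, which serve the separate ribosome of that organelle, 38 fell and 2 rose (median -0.41), with Mrpl39 at -2.32 (adjusted p = 6.3e-06) and Mrps31 at -1.74 (adjusted p = 5.4e-05). The cytosolic genes, with 21 of 85 lower and a median of -0.19, lay between the biogenesis factors and the mitochondrial genes by median, and differences between these lists were not tested.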

How the data were processed

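The authors deposited, for each of the 8 libraries, a gene table and a repeat family table of log2 values without header lines. TopHat2 2.0.6, HTSeq 0.6.1, Bowtie 1.0.0 and the build mm10 appear in the submitters' processing notes without a stated role. The sources used here do not give the gene annotation, the strand setting or how reads matching several places were treated, so paralogs, pseudogenes and overlapping genes can share reads. Each deposited log2 value equalled log2 of a whole read count divided by a library factor, plus 1, and the recovered reads were whole within 0.01 reads for 100% of values. Each age was scaled on its own, so deposited levels are compared within an age.

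At 20 dpp, limma 3.58.1 (R 4.3.3, eBayes with a trend, 2 residual and 5.21 prior degrees of freedom) was fitted to the deposited values of all 17194 genes with the repeat families, with Benjamini-Hochberg adjustment over all genes. The p-values reflect the spread among these 4 libraries, which may be technical. On simulated data of that comparison, with 17194 genes, 83% of 2-fold and 100% of 4-fold changes were recovered, with 12 false calls. The simulation changed 100 genes by 2-fold and 100 by 4-fold, with a coefficient of variation of 0.15 for all genes and known library factors. In the data 59.5% of genes passed and the members shifted together between replicates, so these figures give no error rate for the real calls. Ratios at the earlier ages have exact conditional binomial 95% intervals, and shares of reads have Wilson intervals, both for counting error only. Within-library ratios were tested with exact permutation tests in SciPy 1.17.1. Positions and transcripts are those of GENCODE M21, and 50-base stretches were compared between all its transcripts.

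The members and lists were chosen with earlier results of these data known. Named genes were all copies and X-linked members, the 6 largest rises and 6 largest falls among other members that passed, the 3 highest per kilobase in the 20 dpp controls, the 3 highest and 3 lowest ratios at each earlier age (at least 100 reads), Rpl5, Rpl11, Rps6, Rps19, Rpsa, the stalk proteins, Fau and Gnb2l1, and the 2 genes with the lowest p in every other list. Alternatives changed the scaling, the pseudocount (0.5 or 5 for 1), a filter at a mean of 50 reads, the trend, the features fitted, voom weights, a replicate block and each library in turn. Rpl26 was not analysed here, and 1 named gene is not reported here.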

Additional observations from a re-analysis of the deposited data

Results flagged for a closer look

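The change of Rpl39l between genotypes had opposite signs at 2 ages. At 16.5 dpc its log2 ratio of mutant to control was 0.64, from 1 library of each genotype, and at 20 dpp its change was -3.32 ± 0.14 (SE in limma), with both mutants below both controls. The difference between the ages was not tested.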

How the results depend on the processing

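The falls of Rpl10l and Rpl39l and the rises of Rps4x and Rpl36a passed in all 15 alternatives, with log2 changes from -3.81 to -2.99, -3.45 to -2.72, 0.81 to 1.62 and 0.70 to 1.49. None of these alternatives changed how reads matching several places were treated. The counts of members were less stable. At 20 dpp 26 members passed, and 15 did without the trend (2 higher, 13 lower) and 16 with the scale set by the autosomal canonical members (9 lower). Leaving out 1 library gave 16 to 37 in all, 2 to 11 higher and 11 to 35 lower. Against 5 higher and 21 lower, total gene reads as the scale gave 35 and 2, and the upper quartile 24 and 8. Under total gene reads the changes of 10 named genes turned positive: Fau (0.056), Gnb2l1 (0.49), Rpl15 (0.57), Rpl29 (0.52), Rpl31 (0.17), Rpl32 (0.015), Rpl36al (0.028), Rplp1 (0.25), Rps6 (0.50) and Rps27l (0.16). The upper quartile turned 7 of them: Gnb2l1 (0.34), Rpl15 (0.43), Rpl29 (0.37), Rpl31 (0.032), Rplp1 (0.11), Rps6 (0.36) and Rps27l (0.019). These scales moved the median of all genes by construction, and no other cause was tested. With the replicate block 25 members passed, 5 higher and 20 lower, and Rps27l was the only named member to lose its call (adjusted p = 0.051). The labels do not say what libraries with the same number share. Over all genes their deviations had a correlation of 0.036, from 2 pairs, too few to tell whether they share a batch.

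The median log2 ratio at 16.5 dpc (-0.051) was -0.059 under the upper quartile, and that at 10 dpp (-0.015) was -0.026 under total reads and -0.032 under the upper quartile. Rpl3l against Rpl3 went from 0.042 to between -0.11 and 0.20 when 1 library was left out. Over all single genes named here and all alternatives, 945 in number, 846 stayed on the same side of the threshold, 69 lost and 23 gained the call, and 7 changed sign with a call in either fit. Of the 846, 32 changed sign with a call in neither fit. With 2 libraries a group, no within-library comparison could give a p under 0.33, which says nothing of stability. Levels of Rpl3l, Rpl30, Rpl34 and Rps27 rest on at most 334 reads in a library.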

Other observations

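Marker lists of the other cells of the testis are given here for 20 dpp, beside the 26.4% of all genes that rose and the 33.1% that fell. Of 17 markers of undifferentiated spermatogonia 9 rose and 1 fell (median change 0.95), with Lin28a at 1.34 (adjusted p = 0.00085 in limma) and Id4 at -2.35 (adjusted p = 1.1e-05). Of 10 markers of differentiating spermatogonia 8 rose and 1 fell (median 0.87), with Stra8 at 1.61 and Dmrtb1 at -3.81. Leydig cell markers rose in 3 of 11 (median 0.49), among them Nr5a1 (0.87) and Scarb1 (0.71), and endothelial markers in 2 of 11 with 1 lower (median 0.30), with Egfl7 at 0.98 and Vwf at -0.75, counts near or below those of all genes. Peritubular myoid markers rose in 5 of 10 (median 0.83), among them Myh11 (1.10) and Flna (0.59), and leukocyte markers in 6 of 15 with 1 lower (median 0.50), with Fcer1g at 1.20 and Aif1 at -3.09. The calls of Egfl7, Vwf, Myh11 and Flna were each lost without 1 or more of the libraries. None of 3 measured erythroid markers passed.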
